A study of Mus musculus with 6 samples.

Results

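RNA polymerase I (Pol I) subunits and initiation factors were followed as 10 genes in neural progenitor cells (NPCs). The genes are *Polr1a*, *Polr1b*, *Polr1c*, *Polr1d* and *Polr1e*, which encode subunits of the enzyme, and *Ubtf*, *Rrn3*, *Taf1a*, *Taf1b* and *Taf1c*, which encode its initiation factors. They were taken by name, as the rows of the count table that carry one of these symbols, and they are 10 of the 53060 genes or merged loci of the table. All 10 had a locus of their own that named no other gene, and all 10 passed the filter on low counts that left 19073 genes for the test. RNA-seq had been done on 3 *Armc5* KO cultures, KO NPC 1 to 3, and 3 WT cultures, WT NPC 1 to 3. The NPCs came from ganglionic eminences of e13.5 mouse brains, carried both *Armc5* alleles deleted (*Armc5*(-/-)) or both intact (WT), and were used as second-passage neurospheres, kept in medium with EGF (epidermal growth factor, 20 ng/ml). Both genotypes shared one strain label, 129 sv X CD1, while the study's methods give CD1 x C57BL/6 F1 mice, and whether a culture pooled several fetuses is not stated. ARMC5 recognizes the substrates of a CUL3 ubiquitin ligase that acts on RNA polymerase II (Pol II), and the comparison asked whether transcript levels differ in NPCs that lack it.

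Pol I transcribes the ribosomal RNA (rRNA) genes in the nucleolus into a single precursor that is cut into the 18S, 5.8S and 28S rRNAs, and it makes most of the RNA of a growing cell. UBTF (UBF) binds along the active rRNA genes, the selectivity factor SL1, built from TBP and the TAF1 proteins, marks the start site, and RRN3 (TIF-IA) joins Pol I to SL1 so that transcription can start. Proliferating cells need much rRNA, and the neural crest is known for its sensitivity to low Pol I activity: in humans, mutations of *POLR1B*, *POLR1C*, *POLR1D* or *TCOF1* cause Treacher Collins syndrome, a disorder of the face.

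Promoter sequences are shown for the members at both ends of the range described here, *Polr1a* and *Polr1b*, the lowest relative to the other libraries in KO NPC 3, and *Taf1a*, *Taf1b* and *Taf1c*, which kept their level there, with *Rrn3*, the member with the highest level per length. These 6 were chosen after their values were seen. The sequences are from RefSeq (build GRCm38.p6), each 150 bases from 100 bases before the annotated start, 5′ to 3′. Capitals mark CCGGAAG, the core site of ETS family factors, on either strand. Of the members not shown, *Polr1c* and *Polr1e* also hold it in this stretch, at 54.6% and 58.0% of the median of the other libraries in KO NPC 3. *Polr1d* and *Ubtf*, not shown either, lack it there, at 81.7% and 72.8%.
Polr1a (chr6:71908953-71909102, plus strand): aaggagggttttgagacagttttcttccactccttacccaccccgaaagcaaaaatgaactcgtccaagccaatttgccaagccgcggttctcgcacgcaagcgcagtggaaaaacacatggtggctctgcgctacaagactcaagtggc
Polr1b (chr2:129100896-129101045, plus strand): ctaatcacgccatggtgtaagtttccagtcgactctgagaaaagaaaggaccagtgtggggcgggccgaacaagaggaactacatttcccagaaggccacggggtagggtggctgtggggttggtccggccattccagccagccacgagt
Rrn3 (chr16:13780599-13780748, plus strand): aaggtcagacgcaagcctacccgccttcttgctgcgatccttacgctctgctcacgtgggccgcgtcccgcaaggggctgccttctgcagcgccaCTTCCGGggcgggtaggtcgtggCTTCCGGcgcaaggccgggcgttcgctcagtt
Taf1a (chr1:183388885-183389034, plus strand): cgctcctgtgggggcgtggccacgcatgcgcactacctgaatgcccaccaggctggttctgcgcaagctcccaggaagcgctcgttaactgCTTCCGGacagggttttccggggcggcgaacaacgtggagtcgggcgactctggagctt
Taf1b (chr12:24498481-24498630, plus strand): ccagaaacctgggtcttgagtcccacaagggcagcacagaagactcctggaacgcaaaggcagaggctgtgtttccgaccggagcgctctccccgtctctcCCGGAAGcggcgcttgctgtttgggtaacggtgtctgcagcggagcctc
Taf1c (chr8:119605157-119605306, minus strand): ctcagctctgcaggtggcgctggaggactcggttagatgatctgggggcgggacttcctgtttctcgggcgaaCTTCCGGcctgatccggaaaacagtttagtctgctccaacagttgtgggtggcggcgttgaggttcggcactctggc

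All 10 members were found among the RefSeq promoter windows, which reach from 250 bases before a start to 50 bases after it and number 32851. Of the 10 members, 6 had CCGGAAG in a window on either strand (*Polr1c*, *Polr1e*, *Rrn3*, *Taf1a*, *Taf1b* and *Taf1c*), against 17.8% of the genes tested that have a window and 8.86% of all windows. Members and tested genes are counted over all windows of a gene. The SP family site GGGCGG was found in 7 members (66.6% of the tested genes, 35.7% of all windows) and CCAAT in 4 (42.9% and 37.4%). The MYC E-box CACGTG was found in *Rrn3* alone (11.2% of the tested genes, 7.15% of all windows). The other motifs searched, on both strands, were TATAAA (9.09% of the tested genes, 13.6% of all windows), the E2F sites TTTNNCGC (9.37% and 5.17%) and TTTCGCGC (0.690% and 0.323%), AAGATGGCG of YY1 (3.08% and 1.40%) and the longer sites of NRF1 (2.10% and 0.971%) and ZFP143 (0.665% and 0.286%), and 0 of 10 members held one. GGGCGG overlaps a CCGGAAG match in *Rrn3*, and TTTCGCGC is a special case of TTTNNCGC. The annotated start that was used lies 609 bases from the 5′ end of the deposited *Polr1d* locus, and between 0 and 222 bases from it in the other members. These matches describe the letters of the windows and say nothing of binding.

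The libraries held between 52995791 and 85170379 counts at loci that name a gene, the fewest in KO NPC 3. *Armc5* was at 1.01, 1.64 and 0.73 CPM (counts relative to a fixed library size, after TMM scaling) in KO NPC 1, 2 and 3, against 31.2, 29.5 and 26.2 CPM in WT NPC 1, 2 and 3. KO NPC 3 stood apart from the other 5 libraries: the summed level of 12 proliferation genes was 246 CPM in it, against 2986 to 3741 CPM in the others, and each of the 12 was lowest there. The summed markers of astrocytes were at 3499 CPM there, against 1775 to 2377 CPM, but 3 of the 8 genes lay under the median of the other libraries and 5 above it, between 73.4% and 21008% of it. Those of the oligodendrocyte lineage were at 3543 CPM, against 1282 to 2178 CPM, with 7 of the 8 tested genes above that median. Endothelial and mural markers were at 77.1 CPM, against 3.79 to 7.41 CPM, of which *Pdgfrb* was 58.5 CPM. The neural progenitor markers summed to 3447 CPM in KO NPC 3, against 3982 to 4685 CPM, although 8 of the 12 genes lay above the median of the others, the median gene at 121% of it, and 4 were lowest there. The neuron markers were at 1392 CPM, against 815 to 1484 CPM, with 8 of 10 genes above that median, and the ganglionic eminence markers at 249 CPM, against 180 to 295 CPM, with 5 of 6 genes above it. Microglia and fibroblast markers summed to at most 7.46 CPM in any library, with 4 of 6 and 3 of 5 genes under 1 CPM in all 6 libraries. In these bulk samples, fewer cells of a type and less RNA per cell cannot be told apart.

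Of the 5 core subunit genes, all 5 were lowest in KO NPC 3, and in all 5 the KO and WT libraries overlapped. *Polr1a* (chr6:71909053-71985314, plus strand, GRCm38) encodes the largest, catalytic subunit. It was at 142, 138 and 58.1 CPM in KO NPC 1, 2 and 3 and at 122, 122 and 141 CPM in WT NPC 1, 2 and 3, from 11798, 10058 and 3427 counts against 7681, 8732 and 9691 counts. KO NPC 1 was the highest and KO NPC 3 the lowest of the 6 libraries, so that the KO libraries enclosed all 3 WT libraries. The log2 fold change, KO over WT, was -0.19 (SE 0.35, adjusted p = 0.983 by edgeR's quasi-likelihood test). It was 0.13 once KO NPC 3 was left out. *Polr1b* (chr2:129100995-129126594, plus strand) encodes the second-largest subunit, which forms the active centre with POLR1A. It was at 54.5, 61.4 and 27.9 CPM in the KO libraries and at 49.1, 45.6 and 55.5 CPM in the WT libraries. KO NPC 2 was the highest and KO NPC 3 the lowest, and the log2 fold change was -0.06 (SE 0.31), or 0.21 without KO NPC 3.

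*Polr1c* (chr17:46243920-46248054, minus strand) and *Polr1d* (chr5:147076737-147246122, plus strand) encode a pair of subunits on which Pol I is assembled and which RNA polymerase III (Pol III) shares. *Polr1c* was at 52.2, 34.5 and 20.6 CPM in KO NPC 1, 2 and 3 and at 38.8, 33.1 and 37.8 CPM in WT NPC 1, 2 and 3. Relative to their mean, the KO libraries spread further than in any other member, with KO NPC 1 at the top, KO NPC 3 at the bottom and KO NPC 2 among the WT libraries. The log2 fold change of *Polr1c* was -0.03 (SE 0.33), and 0.25 without KO NPC 3. *Polr1d* was at 32.8, 36.5 and 26.8 CPM in the KO libraries and at 30.3, 30.3 and 33.2 CPM in the WT libraries, with a log2 fold change of 0.04 (SE 0.17). KO NPC 3 was again the lowest, though closer to the others than in the remaining core subunits. The deposited *Polr1d* locus runs 134.5 kb beyond the GENCODE end of the gene and across *Gsx1*, which lies on the same strand, has its own locus and was highest in KO NPC 3 at 11.1 CPM. *Polr1e* (chr4:45018583-45036565, plus strand) encodes a subunit specific to Pol I that pairs with the product of *Cd3eap*. It was at 17.7, 17.8 and 10.2 CPM in the KO libraries and at 15.5, 14.4 and 19.2 CPM in the WT libraries, with a log2 fold change of -0.10 (SE 0.27), and 0.11 without KO NPC 3. Its 3′ end overlaps *Fbxo10* on the opposite strand by 2319 bases, and whether the counting used the strand is not stated.

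**Figure D1:**
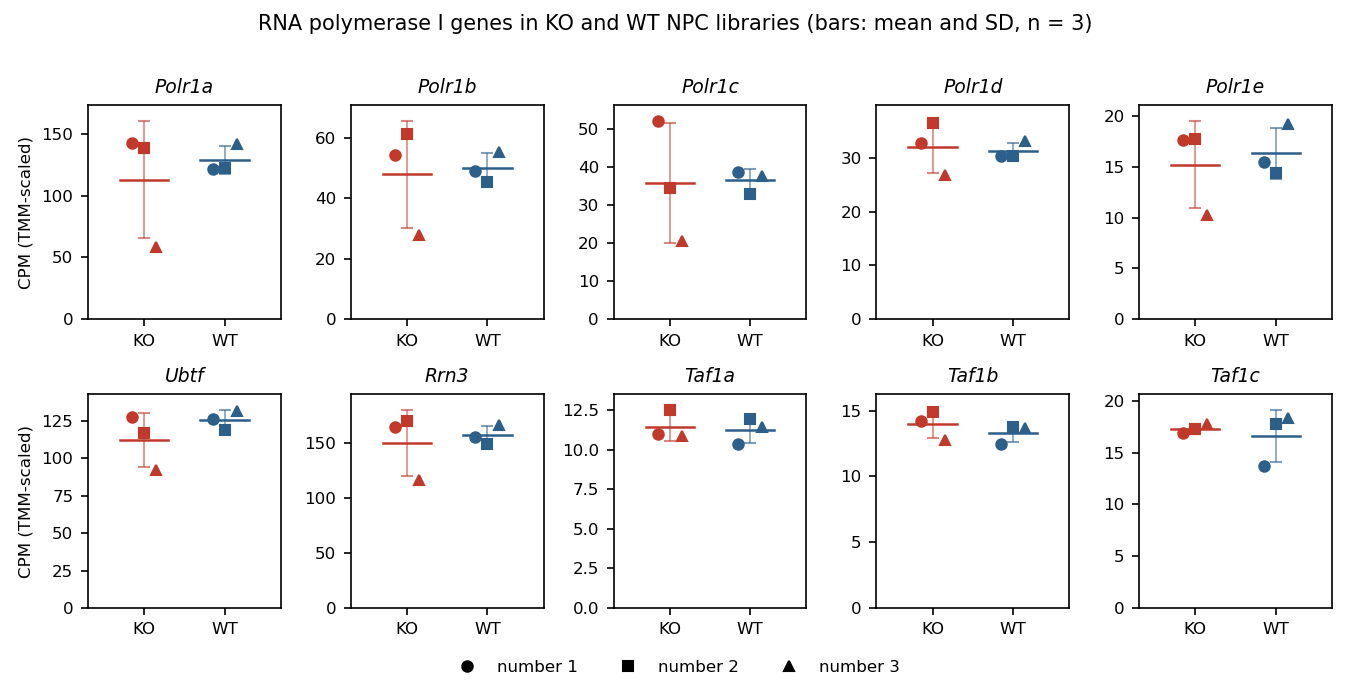
Each panel plots CPM on TMM-scaled library sizes (y axis, from 0) of one gene in the 3 KO libraries (red, left) and the 3 WT libraries (blue, right), with horizontal lines at the group means and bars of 1 SD. KO NPC 3 (red triangle) is the lowest of the 6 libraries in 7 of the 10 genes, as for *Polr1a* at 58.1 CPM, and lies among the others in *Taf1a*, *Taf1b* and *Taf1c*.

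*Ubtf* (chr11:102304560-102320697, minus strand) encodes UBF, the protein that keeps rRNA genes in an open state. It was at 128, 117 and 92.2 CPM in KO NPC 1, 2 and 3 and at 127, 119 and 132 CPM in WT NPC 1, 2 and 3. KO NPC 1 and 2 lay in or next to the WT range, and KO NPC 3 lay under it. The log2 fold change was -0.16 (SE 0.17), the member with the smallest unadjusted p (0.378), and -0.04 without KO NPC 3. *Rrn3* (chr16:13780708-13814839, plus strand) encodes TIF-IA, the factor through which growth signals set Pol I activity. It was at 165, 171 and 116 CPM in the KO libraries and at 156, 150 and 167 CPM in the WT libraries, with a log2 fold change of -0.06 (SE 0.19), or 0.09 without KO NPC 3. KO NPC 2 was the highest library and KO NPC 3 the lowest.

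*Taf1a*, *Taf1b* and *Taf1c*, which encode TAF1 proteins of SL1, varied less between the 6 libraries than the catalytic subunit genes did. Without KO NPC 3 this did not hold for *Polr1a*, whose highest library was then 1.17 times its lowest. It was 1.35 times for *Polr1b*, and 1.21, 1.19 and 1.33 times for *Taf1a*, *Taf1b* and *Taf1c*. *Taf1a* (chr1:183388981-183410198, plus strand) was at 11.0, 12.5 and 10.9 CPM in KO NPC 1, 2 and 3 and at 10.3, 11.96 and 11.4 CPM in WT NPC 1, 2 and 3, with a log2 fold change of 0.03 (SE 0.18). *Taf1b* (chr12:24498359-24558539, plus strand), whose product resembles the Pol II factor TFIIB, was at 14.2, 14.9 and 12.8 CPM in the KO libraries and at 12.5, 13.7 and 13.7 CPM in the WT libraries, with a log2 fold change of 0.07 (SE 0.17). *Taf1c* (chr8:119597871-119605222, minus strand) was at 16.9, 17.3 and 17.8 CPM in the KO libraries and at 13.7, 17.8 and 18.3 CPM in the WT libraries, with a log2 fold change of 0.06 (SE 0.18). The lowest library was WT NPC 1 for each of the 3, and KO NPC 3 lay inside the range of the other libraries. A ribosomal protein pseudogene on the same strand, *Rps13-ps4*, lies within the *Taf1c* locus and had its own locus at 3.72 to 6.26 CPM.

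None of the members passed the threshold of an adjusted p under 0.05 between the KO and WT NPCs. The count was 0 of 10 by edgeR's quasi-likelihood test (0.0% of all genes tested), 0 of 10 by its likelihood ratio test (0.0891%) and 0 of 10 by DESeq2 (0.184%). At an unadjusted p under 0.05 it was also 0 of 10, against 1.61% of all genes. The adjusted p values of the 10 members lay between 0.983 and 0.994 by the quasi-likelihood test. That test did not call the deleted *Armc5* either, at a log2 fold change of -4.68, while the likelihood ratio test and DESeq2 did. A count of 0 by the quasi-likelihood test therefore does not show that the members were unchanged. The KO and WT libraries overlapped in all 10, so that 0 of 10 were separated, against 6.02% of all genes. The 95% confidence intervals of the fold change were wide for the catalytic subunits and *Polr1c*, from 0.492 to 1.57 for *Polr1a*, 0.575 to 1.60 for *Polr1b* and 0.559 to 1.72 for *Polr1c*. They were narrower for *Ubtf*, from 0.671 to 1.19, and for *Taf1b*, from 0.788 to 1.40. With 3 libraries a group, fold changes inside these intervals could not be told from none.

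Of the 10 log2 fold changes, 4 were above 0 and 6 below it, with a median of -0.05, while over all genes tested 48.4% were above 0 and the median was -0.01. Without KO NPC 3, 9 of 10 were above 0 and *Ubtf* alone was below it, with a median of 0.12, against 47.8% above 0 and a median of -0.01 over all genes. The 12 proliferation genes were also all above 0 without KO NPC 3, with a median of 0.19, so the shift was not particular to the members. With both libraries numbered 3 left out, 9 of 10 members were above 0 as well, against 48.5% of all genes, with a median of 0.16. None passed the threshold without KO NPC 3 either, and 0 of 10 had an unadjusted p under 0.05, against 2.77% of all genes by the quasi-likelihood test. Without that library the likelihood ratio test also called 0 of 10 (0.346% of all genes) and DESeq2 0 of 10 (0.458%). Scaling by the *Rn7sk* count, the control RNA that the study used, put all 10 members below 0 with a median of -0.29, and moved the median of all genes to -0.26. Relative to that shift, the members' median was close to the one with TMM.

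**Figure D2:**
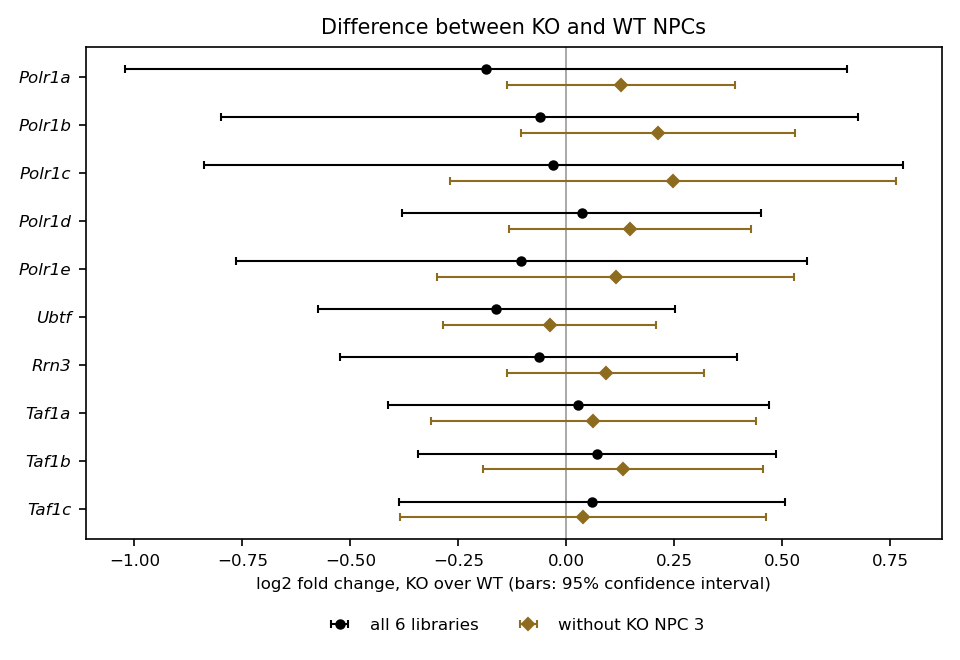
The log2 fold change, KO over WT, of each gene is plotted with its 95% confidence interval for all 6 libraries (black circles) and for 5 libraries without KO NPC 3 (brown diamonds). Every interval includes 0, and 9 of the 10 values without KO NPC 3 lie to the right of 0, as 0.21 for *Polr1b*.

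The replicate numbers gave the same split. In number 1 the KO library was higher than the WT library in 10 of 10 members (50.1% of all genes) and lower in 0 (49.5% of all genes), with log2 ratios between 0.01 and 0.43 and a median of 0.17. In number 2 it was higher in 8 of 10 (50.6% of all genes), and lower in 2 (49.3% of all genes), with ratios between -0.04 and 0.43. The 2 lower ones were *Ubtf* and *Taf1c*. In number 3 it was lower in 10 of 10 (51.3% of all genes), with ratios between -1.28 for *Polr1a* and -0.04 for *Taf1c* and a median of -0.52. In number 3 all 10 members were lower on the TMM and *Rn7sk* scales, and most but not all on total counts. On total counts 3 members were higher and 7 lower in KO NPC 3 than in WT NPC 3, with a median log2 ratio of -0.38. Of all genes, 54.6% were higher on total counts. On the *Rn7sk* scale 0 members were higher, with a median log2 ratio of -1.31. Of all genes, 23.1% were higher on that scale, with a median of -0.82. *Rn7sk* itself was at 8069 CPM in WT NPC 3, against 11684 to 16126 CPM in the other libraries, with KO NPC 3 at 13924 CPM. In number 1 all 10 members were higher on total counts (53.6% of all genes) and on the *Rn7sk* scale (66.0%). In number 2 it was 8 on total counts (51.7%) and 10 on the *Rn7sk* scale (57.5%). No test was made within a number, which holds 1 library of each genotype.

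**Figure D3:**
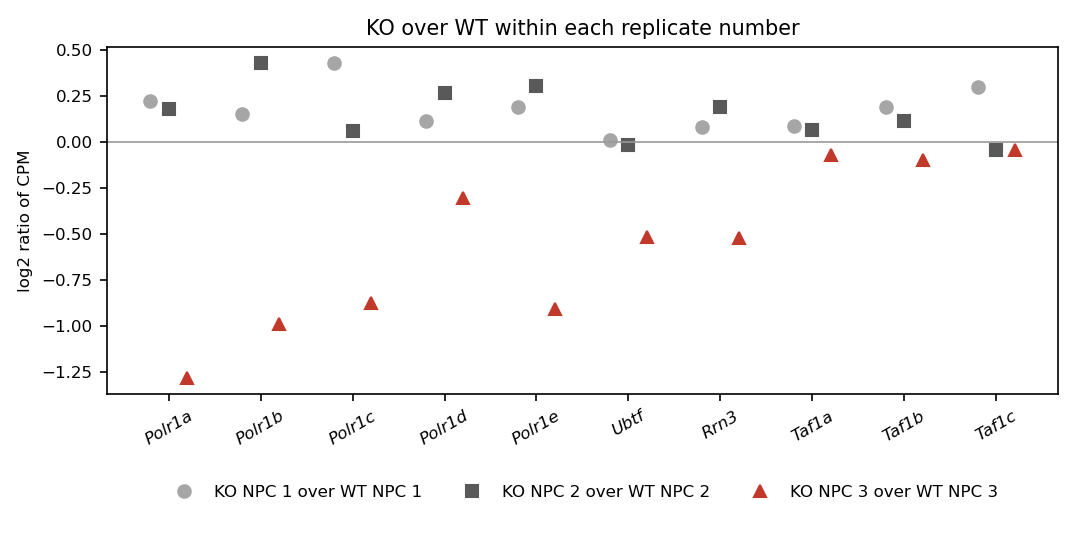
The log2 ratio of CPM, KO library over WT library of the same number, is plotted for each gene in number 1 (light grey circles), number 2 (dark grey squares) and number 3 (red triangles). Number 3 is below 0 in all 10 genes, from -1.28 for *Polr1a* to -0.04 for *Taf1c*, and number 1 is above 0 in all 10.

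The members differed in how far KO NPC 3 lay from the other libraries. Its level was 42.1% of the median of the other 5 libraries for *Polr1a*, 51.2% for *Polr1b*, 54.6% for *Polr1c*, 58.0% for *Polr1e* and 81.7% for *Polr1d*. It was 70.6% for *Rrn3* and 72.8% for *Ubtf*, and 92.9% to 103% for *Taf1a*, *Taf1b* and *Taf1c*. The catalytic subunits thus lay furthest below the other libraries, and *Taf1a*, *Taf1b* and *Taf1c* lay closest to them. This did not hold for all of SL1: at the merged locus of *Taf1d*, which is no member, KO NPC 3 was at 38.1%. KO NPC 3 was the lowest library in 7 of 10 members, against 36.7% of all genes, and at or under 50% of the median of the others in 1 member, *Polr1a*, against 15.0% of all genes. The median over the 10 members was 71.7%, and 99.0% over all genes tested. In the same library the proliferation genes were at a median of 6.08% of the other 5 libraries, *Mki67* at 31.1 CPM against 764 to 1011 CPM, and most astrocyte, oligodendrocyte and neuron markers lay above the median of the others, as given above. Their part in the members' levels was not tested, and with a single such library these values have no replicate check.

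**Figure D4:**
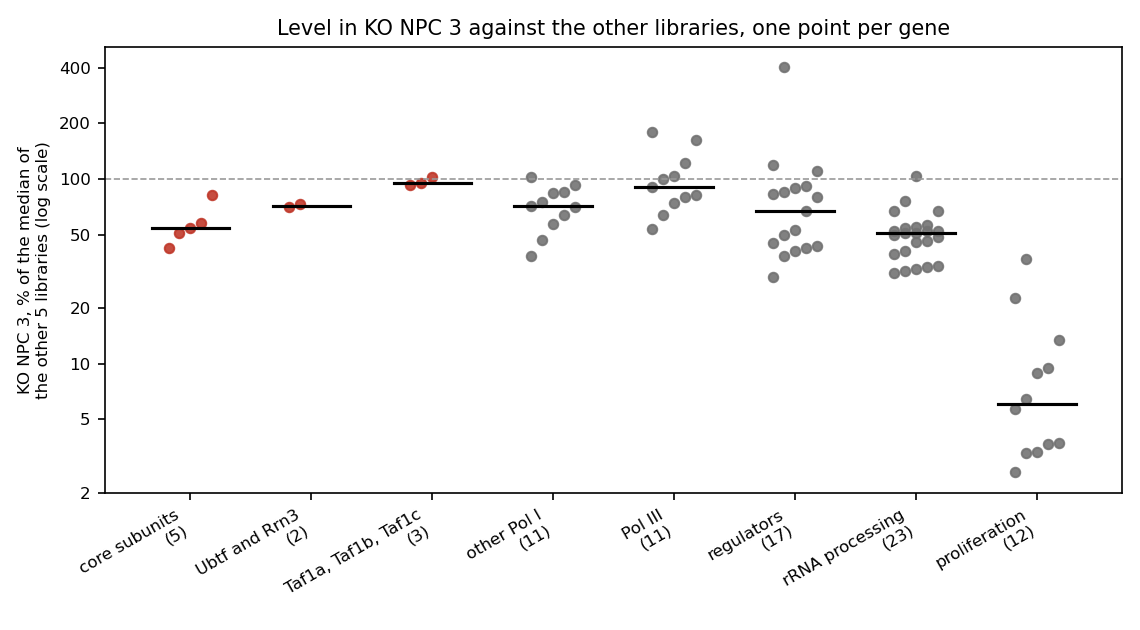
The level in KO NPC 3 is plotted as a percentage of the median of the other 5 libraries (log axis), one point per gene, for the members by role (red) and for other gene lists (grey), with the number of genes in brackets and a bar at the median. The median lies at 54.6% for the core subunits and 95.2% for *Taf1a*, *Taf1b* and *Taf1c*, and at 51.1% for rRNA processing and 6.08% for proliferation.

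The other subunits and factors of Pol I, 11 genes, held its specific subunits *Twistnb*, *Cd3eap* and *Znrd1*, the SL1 genes *Tbp* and *Taf1d*, the terminator factor *Ttf1*, and the subunits *Polr2e*, *Polr2f*, *Polr2h*, *Polr2k* and *Polr2l*, shared with Pol II and Pol III. None passed the threshold (0 of 11 by edgeR's quasi-likelihood test, its likelihood ratio test and DESeq2, and 0 of 11 at an unadjusted p under 0.05). All 11 log2 fold changes were below 0, with a median of -0.11, and 6 of 11 without KO NPC 3, with a median of -0.00. The smallest unadjusted p was that of *Tbp* (0.158), the TATA-binding protein that serves all 3 polymerases, at 31.6, 35.7 and 38.8 CPM in KO NPC 1, 2 and 3 and at 37.7, 48.7 and 41.8 CPM in WT NPC 1, 2 and 3. Only KO NPC 3 of the KO libraries reached the WT range, and the log2 fold change was -0.27 with it and -0.35 without. *Taf1d*, at a locus merged with snoRNA genes, 11 genes in all, was at 87.4, 79.9 and 33.3 CPM in the KO libraries and at 76.4, 115 and 96.7 CPM in the WT libraries. The third KO library lay far below the rest there, and the log2 fold change was -0.52 (SE 0.38), or -0.20 when that library was left out. *Polr2k* had one of -0.43 (SE 0.33). KO NPC 3 was the lowest library in 9 of the 11, and at a median of 71.7% of the others, the same as for the members.

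The 11 subunits of Pol III, which makes 5S rRNA and tRNAs and shares POLR1C and POLR1D with Pol I, were spread on both sides of 0. None passed the threshold (0 of 11 by the 3 tools, 0 of 11 at an unadjusted p under 0.05), 5 log2 fold changes were above 0 and 6 below, with a median of -0.03. KO NPC 3 was lowest in 3 of 11, and at a median of 90.8% of the other libraries. *Polr3c* had the smallest unadjusted p of the 11 (0.208 by the quasi-likelihood test). It was at 27.9, 19.9 and 24.2 CPM in KO NPC 1, 2 and 3 and at 19.3, 21.1 and 19.7 CPM in WT NPC 1, 2 and 3. The log2 fold change of *Polr3c* was 0.26 (SE 0.18), and 0.25 without KO NPC 3. *Polr3g*, a subunit typical of stem cells, was at 2.93, 10.8 and 3.50 CPM in KO NPC 1, 2 and 3 and at 3.33, 3.38 and 3.80 CPM in WT NPC 1, 2 and 3. Its log2 fold change of 0.71 (SE 0.53) rests on KO NPC 2, the other 5 libraries lying between 2.93 and 3.80 CPM. The largest of the Pol III subunits, *Polr3a*, was at 43.7, 45.5 and 44.5 CPM in the KO libraries and at 44.4, 43.4 and 45.1 CPM in the WT libraries, a value given here after it was seen. KO NPC 3 thus lay with the other libraries for *Polr3a* and under them for *Polr1a*.

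Among regulators of rRNA gene transcription, 17 of 18 genes were tested, the exception being *Ubtfl1*, at 0.102 CPM or less in every library. None passed the threshold (0 of 17 by the 3 tools, 0 of 17 at an unadjusted p under 0.05). The log2 fold changes had a median of -0.02, with 8 above 0 and 9 below, and 16 of 17 were above 0 without KO NPC 3, with a median of 0.16. *Mycn*, a MYC family factor of neural progenitors, was at 5.34, 6.76 and 21.5 CPM in KO NPC 1, 2 and 3 and at 3.01, 7.45 and 5.14 CPM in WT NPC 1, 2 and 3. KO NPC 3 was the highest library there, and the log2 fold change was 1.11 (SE 0.62) with it and 0.22 without. *Myc*, of the same family and list, went the other way. It was lowest in KO NPC 3 at 15.2 CPM, against 27.6 to 61.8 CPM in the other libraries. *Rb1*, whose product restrains UBF, had a log2 fold change of 0.13 (SE 0.14), *Kdm2a*, a histone demethylase, one of 0.14 (SE 0.18) and *Baz2a*, of the silencing complex NoRC, one of -0.09 (SE 0.15). KO NPC 3 was the lowest library in 13 of the 17, at a median of 67.2% of the others.

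Genes of rRNA processing, which cut and modify the product of Pol I, lay lower in KO NPC 3 than the Pol I genes did. Of the 23, KO NPC 3 was the lowest library in 22, at a median of 51.1% of the other 5 libraries and a range of 31.0% to 103%. None passed the threshold (0 of 23 by the 3 tools, 0 of 23 at an unadjusted p under 0.05), 22 log2 fold changes were below 0, with a median of -0.14, and 19 were above 0 without KO NPC 3, with a median of 0.11. *Gar1*, of the box H/ACA particles that guide pseudouridylation, was at 18.6, 17.0 and 5.79 CPM in KO NPC 1, 2 and 3 and at 23.5, 16.0 and 30.2 CPM in WT NPC 1, 2 and 3. Its log2 fold change was -0.75 (SE 0.47, unadjusted p = 0.164 by the quasi-likelihood test), and -0.38 without KO NPC 3. *Nhp2*, of the same particles, had a log2 fold change of -0.40 (SE 0.43), and -0.03 without it. *Utp4* had one of -0.27 (SE 0.29), and -0.03 without KO NPC 3. Reads of rRNA itself were depleted from the libraries, so that no level of the Pol I product was measured. The merged locus of *Gm26917* and *Gm42418*, known for collecting rRNA reads, was at 25673, 23584 and 10290 CPM in KO NPC 1, 2 and 3 and at 25342, 26200 and 17611 CPM in WT NPC 1, 2 and 3, and what depletion left in each library was not tested.

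Levels were compared between members per kilobase (kb), first by the length of the deposited locus. In the WT NPCs *Rrn3* was the highest at 36.4 CPM per kb, followed by *Polr1c* at 16.0, *Ubtf* at 15.8, *Polr1a* at 10.5 and *Polr1b* at 8.62 CPM per kb. The other 5 lay between 3.89 CPM per kb for *Polr1d* and 5.07 CPM per kb for *Taf1b*. The WT libraries of *Rrn3* and *Polr1c* did not overlap, and neither did those of *Ubtf* and *Polr1a*, of *Polr1a* and *Polr1b*, or of *Polr1b* and *Taf1b*. The other neighbours in the order overlapped. In the KO NPCs the 10 means ran from 34.9 CPM per kb for *Rrn3* to 3.91 CPM per kb for *Polr1e*, and only *Polr1d* and *Polr1e* changed places. The length of the GENCODE principal transcript was an alternative chosen after the data were seen. It raised *Polr1d* to 26.1 CPM per kb, since its deposited locus counts 8044 bases and this transcript 1196 bases. The counts were still those of the whole deposited locus, so reads outside this transcript would raise the value, which was not tested. *Polr1d* then stood 4th, and its WT libraries overlapped with those of *Ubtf* and not with those of *Polr1a*. *Rrn3* stayed first at 43.9 CPM per kb, and *Polr1a* and *Polr1b*, at 13.9 and 12.5 CPM per kb, then overlapped.

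**Figure D5:**
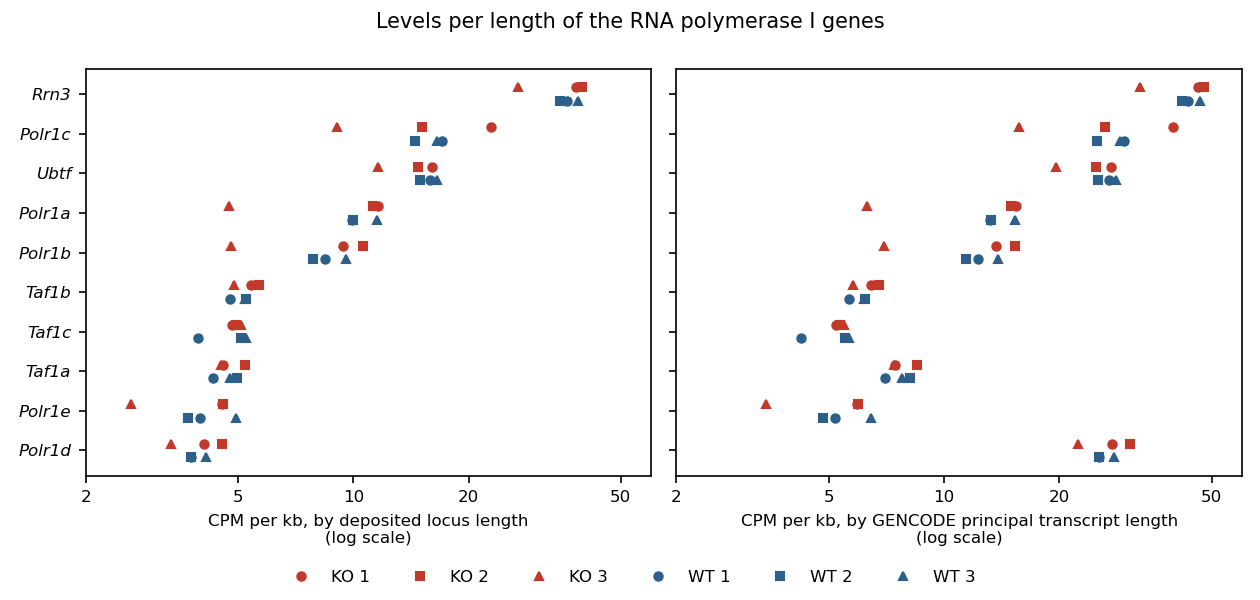
CPM per kb (log axis) is plotted for each gene and library, KO in red above WT in blue, with the length of the deposited locus (left) or of the GENCODE principal transcript (right). The counts are those of the deposited locus on both sides. *Rrn3* is highest in both, at 36.4 and 43.9 CPM per kb in the WT NPCs, while *Polr1d* lies last on the left at 3.89 CPM per kb and among the higher genes on the right at 26.1 CPM per kb.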

How the data were processed

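RNA-seq of 3 KO and 3 WT NPC cultures was analysed from the table the authors deposited. The authors depleted rRNA, prepared strand-specific paired-end libraries and named, in their processing notes, GRCm38 and the tools Trimmomatic, STAR, Picard, StringTie and edgeR, with no version. The deposited counts are whole-number counts per locus and library, neither scaled nor filtered, and how reads were assigned to loci was not given in the sources used here. The authors' log2 values (log2 CPM and log2 counts relative to *Rn7sk*, with group means) were only checked: log2 CPM differed from the counts by at most 0.0287 at 13409 loci with 100 or more counts in every library.

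Counts at the 53103 loci naming a gene were summed per reference gene, and the 6596 other loci were left out. These other loci held 4.89% of the counts in KO NPC 3 and 1.31% to 1.72% in the other libraries. Genes were filtered with filterByExpr (minimum count 10, minimum total 15), scaled by TMM and tested two-sided with the quasi-likelihood test of edgeR 4.0.16 (R 4.3.3, limma 3.58.1), with Benjamini-Hochberg adjustment over 19073 genes and a threshold of 0.05. The study's own test, the likelihood ratio test with *Rn7sk* scaling, was split into alternatives, and the combination was not run. The study compared paired samples per transcript and scaled by a ratio of log2 CPM of *Rn7sk*. Here the *Rn7sk* count itself was used, per gene. The other alternatives were total counts only, no filter, DESeq2 1.42.0, the replicate number as a block, and libraries left out. The scripts were tested on simulated data.

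The study describes 3 pairs of biological replicates. Same-numbered libraries deviated together, with r = 0.413, 0.169 and 0.195 for numbers 1, 2 and 3. For any other KO and WT libraries r was at most 0.0579. Deviations were taken from the mean of each group, so these values are tied to those of the same-numbered libraries and are no separate baseline. The numbers were taken as pairs only in the ratios within a number and in the replicate block. The main fit had no block, so its SE, confidence intervals and p values do not use the pairing. P values set the difference between the groups against the spread between these cultures.

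The members and gene lists were chosen with earlier results of these data known, and no list was tested as a set. Named were the 10 members, up to 4 genes of each other list with the smallest p, and *Armc5*, *Rn7sk* and marker genes as checks. *Polr3a*, *Myc* and the genes that overlap members were named after their values were seen. CPM precision was set by the counts behind it.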

Additional observations from a re-analysis of the deposited data

How the results depend on the processing

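The count of members past the threshold was 0 of 10 under all 16 alternatives, with every library left out in turn included, and 0 for each of the other 4 lists under their 14. Over all genes the count was 0 with the quasi-likelihood test, 4 on the *Rn7sk* scale, 5 without a filter, 17 by the likelihood ratio test (38 if blocked by replicate) and 35 by DESeq2, and the cause was not tested. With KO NPC 3 left out, 68 of 19631 genes passed the likelihood ratio test and 90 DESeq2, alternatives chosen after seeing the data. The replicate block changed no call of the members or the lists, and with it the members' median log2 fold change was -0.10, against -0.05 without it. The median was -0.29 on the *Rn7sk* scale, and it ranged from -0.15 to 0.12 with one library left out, where KO NPC 3 gave 0.12. Signs changed as follows, always without passing the threshold. Without both libraries numbered 3, the log2 fold change was 0.20 for *Polr1a*, 0.29 for *Polr1b*, 0.27 for *Polr1c*, 0.24 for *Polr1e* and 0.13 for *Rrn3*. On the *Rn7sk* scale it was -0.24 for *Polr1d*, -0.23 for *Taf1a*, -0.18 for *Taf1b* and -0.21 for *Taf1c*. It was 0.00384 for *Polr1c* on total counts and -0.00343 for *Taf1a* without a filter. With one library left out it ranged from -0.39 to 0.13 for *Polr1a*, -0.24 to 0.21 for *Polr1b*, -0.41 to 0.25 for *Polr1c*, -0.037 to 0.15 for *Polr1d*, -0.22 to 0.11 for *Polr1e*, -0.13 to 0.091 for *Rrn3*, -0.020 to 0.10 for *Taf1a* and -0.052 to 0.14 for *Taf1c*. *Ubtf* stayed below 0 and *Taf1b* above 0 in each of these. Of 140 such values of the 10 members, 24 changed sign. The number of libraries, 3 a group, and the distance of KO NPC 3 from the others limit what could be called.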
